A study of Arabidopsis thaliana with 12 samples.

Results

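The smeb-2 line of Arabidopsis thaliana was compared with the smeb-1 line, first without salt and then under salt, to ask which genes lie in the order of SmEb transcript and which are set apart in a single line. SmEb is a gene for the Sm protein E. Seedlings were 12 days old, grown on MS medium, and either left untreated (control) or exposed to 200 mM NaCl for 6 h (salt). Each of the 6 groups, Col-0 (the wild type), smeb-1 and smeb-2 in control and in salt, had 2 libraries. The comparison thus uses 8 of the 12 libraries, 4 in control and 4 in salt, and the Col-0 libraries place both lines against the wild type. Genes were taken where the FPKM (fragments per kilobase of transcript, scaled to library size) was at least 1 in 2 or more of the 12 libraries, which left 20251 of 33559 genes. The labels do not state the kind of mutation in either line, and each line is a single allele, so a difference between the lines cannot be told apart from other differences in their genomes.

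Sm proteins form a ring around the small nuclear RNAs of the spliceosome, the machine that removes introns from pre-mRNA, and protein E is a member of that ring. Arabidopsis carries a pair of genes for it, SmEa and SmEb, and the study's title names splicing of the RCD1 transcript as a target of SmEb in salt. RCD1 is a nuclear hub protein that binds many stress transcription factors.

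Values of a group are given in the order of the suffixes 0 and 1 of the library names, which could not be tied to the replicate numbers in the labels. Whether a pair of libraries stands for separate cultures is not stated, so the tests reflect the spread of these libraries alone, which may be technical. FPKM summed to between 738721 and 848257 per library, and read totals were not used here. Cd appears in a label field of samples whose titles say salt, and the control labels give 6 h untreated where the protocol allows 0 or 6 h. Between any pair of libraries the spread was taken as the median absolute log2 difference over the tested genes. In control it was 0.0851 within smeb-1, 0.0847 within smeb-2, and 0.0896 to 0.109 between the lines. In salt it was 0.0998 within smeb-1, 0.0933 within smeb-2, and 0.111 to 0.136 between the lines. Libraries of the same treatment thus differed between the lines by little more than within a line. Against Col-0 the lines differed by 0.166 to 0.186 in control. In salt that distance was 0.172 to 0.264 for smeb-1 and 0.151 to 0.226 for smeb-2, beside 0.167 between the Col-0 salt libraries themselves, which varied more than any other pair of one group.

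The coding sequences of SmEb and SmEa are printed because reads of one copy might be counted for the other. How the authors' counting treated the copies is not known, and its part in the low SmEb values of smeb-2 was not tested. Both are from the TAIR10.1 reference, 267 bases long over 6 coding exons, SmEb on chr2:8123334-8124710 (plus strand) and SmEa on chr4:14836773-14837919 (minus strand). Capitals mark the 32 positions that differ. Identity was 88.0%, and the longest identical stretch was 26 bases.
SmEb: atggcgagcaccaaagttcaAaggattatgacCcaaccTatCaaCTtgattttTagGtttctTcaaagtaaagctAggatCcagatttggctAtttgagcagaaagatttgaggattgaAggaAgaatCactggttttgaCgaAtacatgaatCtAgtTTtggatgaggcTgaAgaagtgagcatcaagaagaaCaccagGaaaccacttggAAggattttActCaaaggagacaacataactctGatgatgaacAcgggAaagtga
SmEa: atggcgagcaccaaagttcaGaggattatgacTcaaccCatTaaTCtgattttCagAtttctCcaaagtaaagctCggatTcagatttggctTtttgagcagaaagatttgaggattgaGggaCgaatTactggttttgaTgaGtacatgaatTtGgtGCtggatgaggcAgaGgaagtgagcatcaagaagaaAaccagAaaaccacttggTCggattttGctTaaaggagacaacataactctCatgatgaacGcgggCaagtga

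SmEb transcript was lower in smeb-2 than in smeb-1 in both treatments. In control the FPKM of SmEb (AT2G18740, chromosome 2, 8123195 to 8125078, plus strand) was 27.6 and 26.0 in smeb-1 and 4.93 and 6.24 in smeb-2. In salt it was 23.2 and 22.9 in smeb-1 and 1.92 and 2.04 in smeb-2. All libraries of smeb-2 lay below all of smeb-1, which in turn lay below those of Col-0. As a share of the Col-0 mean, smeb-1 held 47.1% in control and 30.8% in salt, and smeb-2 held 9.80% and 2.65%. The mean of smeb-1 was 4.80-fold that of smeb-2 in control and 11.6-fold in salt. On the log2(FPKM + 1) scale smeb-2 minus smeb-1 was -2.09 ± 0.0919 in control (difference ± SE, adjusted p = 1.92e-05) and -3.01 ± 0.0919 in salt (adjusted p = 5.63e-07). The change of this difference between treatments was -0.93 ± 0.130 and did not pass (adjusted p = 0.125).

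The copy SmEa and the other genes of the Sm ring showed no such step. SmEa had FPKM of 31.1 and 29.5 in smeb-1 and 33.3 and 32.2 in smeb-2 in control, and 28.6 and 29.6 against 25.5 and 26.0 in salt. Its line difference was 0.11 ± 0.0937 in control (adjusted p = 0.943, 95% interval -0.10 to 0.32) and -0.17 ± 0.0937 in salt (adjusted p = 0.478, interval -0.38 to 0.04). SmEa and SmEb together summed to 55.5 to 58.7 FPKM in smeb-1 and 38.2 to 38.4 in smeb-2 in control. In salt that sum was 51.8 to 52.4 in smeb-1 and 27.4 to 28.1 in smeb-2, so the sums of the lines did not overlap. Of the 13 Sm ring genes tested only SmEb passed, in either treatment. The others lay between -0.16 (SmGb) and 0.11 (SmEa) in control and between -0.17 (SmEa) and 0.12 (SmD2a) in salt. RCD1 (AT1G32230) had FPKM of 112 and 117 in smeb-1 and 118 and 118 in smeb-2 in control. In salt RCD1 stood at 94.3 and 85.9 in smeb-1 and 92.7 and 97.5 in smeb-2. Its line difference was 0.05 ± 0.110 (adjusted p = 0.996) in control and 0.08 ± 0.110 (adjusted p = 0.806) in salt, on total transcript, which does not measure its splicing.

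Few genes separated the lines. In control 21 genes passed at an adjusted p under 0.05, 0.104% of the genes tested, 11 higher (0.0543%) and 10 lower (0.0494%) in smeb-2. In salt 58 passed, 0.286%, 36 higher (0.178%) and 22 lower (0.109%). Against Col-0 the lines shared the wild type libraries, and each comparison gave more calls. In control 4009 genes (19.8%) passed for smeb-1 and 3741 (18.5%) for smeb-2, and in salt 5587 (27.6%) and 2783 (13.7%). By direction, 9.11% were higher and 10.7% lower for smeb-1 in control, and 8.57% and 9.9% for smeb-2. In salt the shares were 12.4% higher and 15.1% lower for smeb-1, and 7.66% and 6.08% for smeb-2. The median SE of a line difference was 0.106, and its 95% interval lay within 2-fold for 19690 genes (97.2%) in control and 19356 (95.6%) in salt. At an unadjusted p under 0.05 there were 1365 genes in control and 2659 in salt.

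The counts depended on which libraries set the spread. A fit of only the 8 libraries of the lines, without Col-0, called 52 genes (0.257%) in control, 0.138% higher and 0.119% lower, and 507 (2.5%) in salt, 1.76% higher and 0.746% lower. Leaving a library out of the fit of all 12 moved the control count to 5 to 8 without one of the lines in control, to 11 or 12 without one of the lines in salt, and to 59 without either Col-0 salt library. The salt count went to 4 without smeb-1 salt suffix 0 and to 97 without suffix 1, to 7 and 5 without smeb-2 salt suffix 0 and suffix 1, to 12 without either smeb-1 control library, to 7 without either smeb-2 control library, to 13 without either Col-0 control library, and to 609 and 610 without Col-0 salt suffix 0 and suffix 1.

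The genes on either side of SmEb differed between the lines, and both were set farther from Col-0 in smeb-1. On the plus strand, AT2G18735, annotated as an RNA of no further class (8122119 to 8123076), ends 118 bases before SmEb, and AT2G18750, which encodes a calmodulin-binding protein (8125128 to 8128702), starts 49 bases after it. The gaps are printed as the stretches that join these neighbours to SmEb (TAIR10.1, plus strand, all in lower case since no base is singled out), the first at chr2:8123077-8123194 and the second at chr2:8125079-8125127.
Before SmEb: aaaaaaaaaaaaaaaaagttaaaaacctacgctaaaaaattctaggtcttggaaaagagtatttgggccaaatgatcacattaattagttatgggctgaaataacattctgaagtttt
After SmEb: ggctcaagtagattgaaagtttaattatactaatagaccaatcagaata

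AT2G18735 stood in control at 7.20 and 6.33 FPKM in Col-0, 0.971 and 0.712 in smeb-1 and 6.2 and 7.18 in smeb-2. In salt it stood at 8.84 and 7.20 in Col-0, 0.732 and 0.967 in smeb-1 and 5.10 and 6.76 in smeb-2. Thus smeb-1 alone lay apart in control, and in salt smeb-2 lay just under the Col-0 libraries. The line difference was 2.06 ± 0.151 (adjusted p = 7.64e-04) in control and 1.90 ± 0.151 (adjusted p = 0.00162) in salt. AT2G18750 moved the other way, with 33.5 and 32.3 FPKM in Col-0, 70.4 and 66.4 in smeb-1 and 38.8 and 34.1 in smeb-2 in control. In salt AT2G18750 had 31.9 and 35.6 in Col-0, 57.7 and 51.1 in smeb-1 and 25.4 and 25.9 in smeb-2. It was high in smeb-1 in both treatments, and in salt the Col-0 libraries lay between those of the lines. Its line difference was -0.89 ± 0.0862 (adjusted p = 0.00555) in control and -1.05 ± 0.0862 (adjusted p = 0.00162) in salt. Among the 21 other tested genes within 50 kb of SmEb, only these 2 passed between the lines, in control and in salt. Over all genes 0.104% and 0.286% passed. Whether the authors counted reads by strand, or how reads that run from one of these genes into the next were counted, was not stated.

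**Figure D1:**
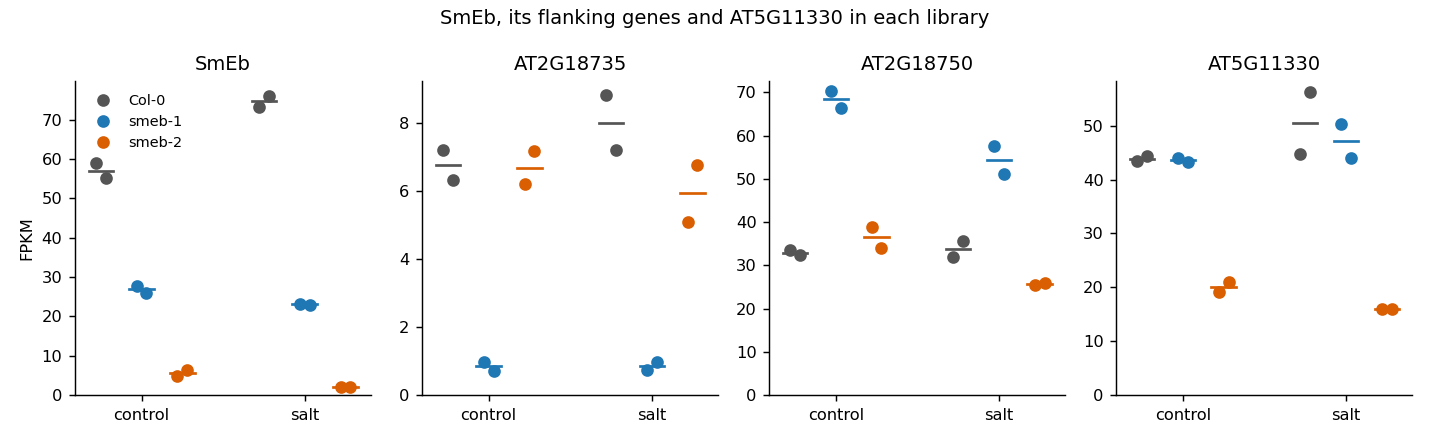
FPKM (y axis, from 0) of SmEb, AT2G18735, AT2G18750 and AT5G11330 in each of the 12 libraries; points are libraries, short lines are group means, and colours are Col-0, smeb-1 and smeb-2. SmEb steps down from Col-0 to smeb-1 to smeb-2, the flanking AT2G18735 and AT2G18750 stand apart in smeb-1, and AT5G11330 stands apart in smeb-2.

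**Figure D2:**
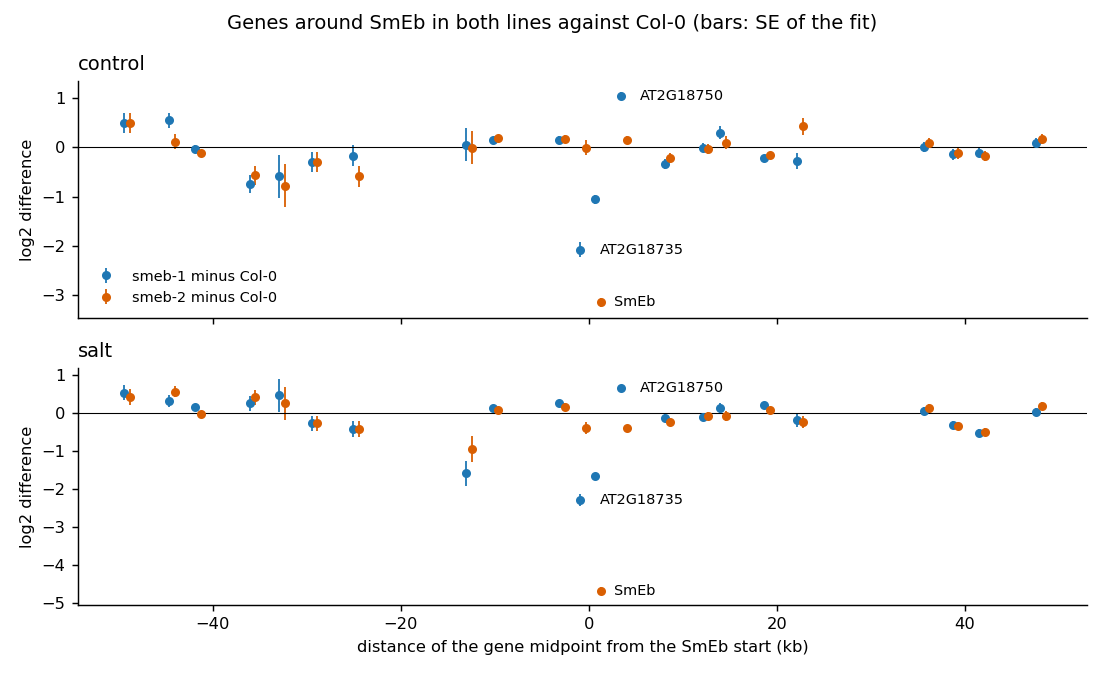
Log2 difference from Col-0 (y axis, log2(FPKM + 1) scale, bars are the SE of the fit) of the tested genes within 50 kb of SmEb, in smeb-1 and smeb-2, against the distance of the gene midpoint from the SmEb start in kb (x axis), in control (top) and salt (bottom). AT2G18735 and AT2G18750 differ between the lines, while at most other genes the points of the lines lie close together.

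AT5G11330, which encodes an FAD/NAD(P)-binding oxidoreductase, was the clearest gene set apart in smeb-2. It lies on chromosome 5 (3617138 to 3618913, minus strand). In control AT5G11330 had 43.5 and 44.3 FPKM in Col-0, 44.1 and 43.2 in smeb-1 and 19.1 and 21.1 in smeb-2. In salt AT5G11330 had 44.8 and 56.3 in Col-0, 50.3 and 44.1 in smeb-1 and 15.9 and 16.0 in smeb-2. The values of smeb-1 were near or among those of Col-0 and those of smeb-2 lay below both. The line difference was -1.08 ± 0.104 (adjusted p = 0.00555) in control and -1.51 ± 0.104 (adjusted p = 6.51e-04) in salt. None of the 21 other tested genes within 50 kb of it passed between the lines, 0 in control and 0 in salt (the limma fit of all libraries). Over all genes 0.104% and 0.286% passed, so a count of 0 among 21 genes says nothing about the neighbourhood.

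The control and salt comparisons use separate libraries of the lines, but the fit gives each gene 1 spread for both treatments. Calls in both treatments are therefore not independent, and a gene of small spread is more readily called in both. There were 7 such genes with the same direction and 0 with opposite directions, 33.3% of the control calls and 12.1% of the salt calls. They were SmEb, AT2G18735, AT2G18750 and AT5G11330 above, with AT1G47400, AT3G13175 and AT5G14650. AT5G14650, a pectin lyase-like gene, was at 9.10 and 7.72 FPKM in smeb-1 and 3.34 and 3.32 in smeb-2 in control, where Col-0 had 0.775 and 1.12. In salt AT5G14650 was at 12.7 and 9.14 in smeb-1 and 4.21 and 5.26 in smeb-2, with 3.04 and 3.57 in Col-0. So the line with the lower SmEb level was nearer to Col-0 at this gene. Its line difference was -1.12 ± 0.162 (adjusted p = 0.0483) in control and -1.05 ± 0.162 (adjusted p = 0.038) in salt. AT1G47400, of unknown function in the annotation, was higher in smeb-2. Its control difference was 1.31 ± 0.181 (adjusted p = 0.0426), and its salt difference was 1.32 ± 0.181 (adjusted p = 0.0271). AT3G13175, also uncharacterized, was lower in smeb-2, at -0.59 ± 0.0821 in both treatments (adjusted p = 0.0426 without salt and 0.0278 under salt). Its place against Col-0 was not the same, however. In control smeb-2 alone passed against Col-0, as lower, and in salt both lines passed as higher, with smeb-1 farther away. With each treatment fitted on its own groups, 1 gene was called in the same direction in both treatments. In a fit of the lines alone 17 genes were called in the same direction in both treatments and 4 in opposite directions. Without either smeb-1 control library there were 2 such genes, and without smeb-2 control suffix 0 there were 3. The count was 4 without either Col-0 control library, smeb-1 salt suffix 0, smeb-2 control suffix 1 or smeb-2 salt suffix 1, and 18 without either Col-0 salt library.

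The sign of a called difference was also compared with its sign in the other treatment, the 7 genes included. Of the 21 genes called in control 18 had the same sign in salt, and of the 58 called in salt 38 had the same sign in control. In the fit of the lines alone these counts were 39 of 52 and 292 of 507. Over all tested genes, which are not independent replicates, the differences in the 2 treatments correlated across genes at r = 0.111, and 51.8% had the same sign.

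**Figure D3:**
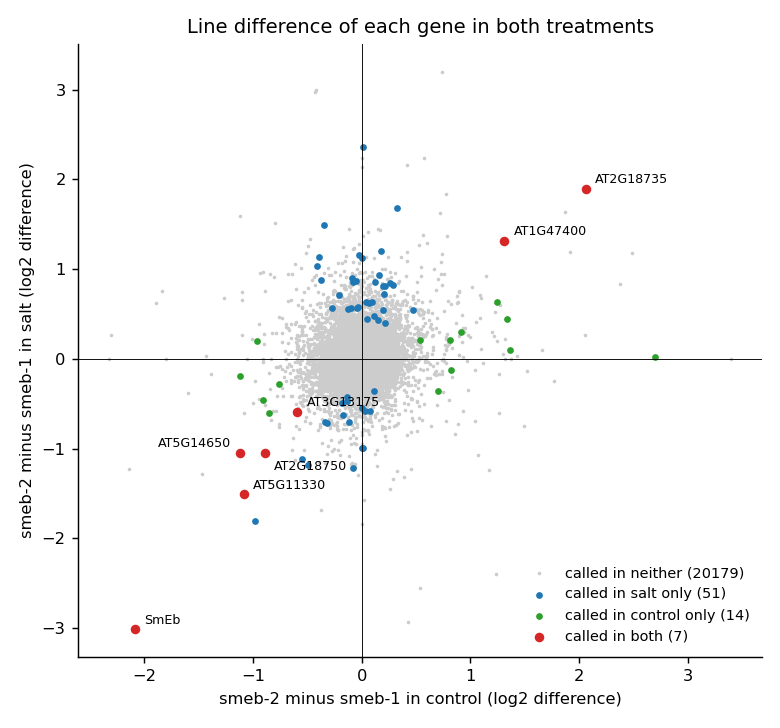
Each point is a tested gene, with smeb-2 minus smeb-1 in control on the x axis and in salt on the y axis (log2 differences on the log2(FPKM + 1) scale); colour marks genes called at an adjusted p under 0.05, and the genes called in both are named. The 7 genes called in both lie in the upper right or lower left, and most of the 51 called only in salt lie near 0 on the x axis.

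Genes called between the lines were sorted by where each line stood against Col-0. A gene was graded where smeb-1 differed from Col-0 and smeb-2 differed from smeb-1 in the same direction, that is, in the order of SmEb level. It was set apart in 1 line where that line differed from Col-0 and from the other line, and the other line did not pass against Col-0, which does not show that it equals Col-0. Where both lines passed on the same side of Col-0 and smeb-1 was farther away, it was called farther in smeb-1. These counts are descriptions, since the comparisons share libraries.

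Graded genes were rare. In control they were 2 of 21, SmEb and AT2G43620. SmEb sets the order, so it is graded by construction, and each count of graded genes can include it. AT2G43620 is a gene of the chitinase family, which break down the chitin of fungal walls. AT2G43620 had 15.8 and 17.0 FPKM in Col-0, 7.70 and 8.41 in smeb-1 and 4.1 and 4.62 in smeb-2, and no libraries of neighbouring groups overlapped. Its difference was -0.94 from Col-0 to smeb-1 (adjusted p = 4.2e-04) and -0.76 ± 0.108 from smeb-1 to smeb-2 (adjusted p = 0.0437). In salt the order of AT2G43620 was another, with 36.5 and 44.6 FPKM in Col-0, 52.5 and 61.1 in smeb-1 and 46.9 and 46.1 in smeb-2. In salt they were 2 of 58, SmEb and AT1G76210, a gene of unknown function that was named because the count was small. AT1G76210 rose along the order, from 0.681 and 0.987 FPKM in Col-0 to 2.57 and 2.47 in smeb-1 and 5.64 and 5.19 in smeb-2. Without either Col-0 salt library there were 6 graded genes in control, and in salt 13 without suffix 0 and 11 without suffix 1. Without any one of the other libraries there was 1 in control, and 1 in salt save without smeb-1 salt suffix 1.

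In control, 9 genes were set apart in smeb-1, 2 were farther in smeb-1, 7 were set apart in smeb-2, and 1, the bHLH transcription factor BHLH101 that is induced by iron deficiency, had the lines on opposite sides of Col-0. The count set apart in smeb-1 was 2 to 4 without one of the lines' control libraries, 5 or 6 without one of their salt libraries and 25 without either Col-0 salt library. The count set apart in smeb-2 was 0 without smeb-1 control suffix 1, 2 to 4 without any other library of the lines or of Col-0 control, and 14 without either Col-0 salt library. AT5G46900, annotated as a lipid-transfer or protease-inhibitor family gene (chromosome 5, 19039701 to 19040456, minus strand), had the largest difference among the calls in control. It had 23.3 and 15.4 FPKM in Col-0, 1.51 and 1.4 in smeb-1 and 13.2 and 17.0 in smeb-2. The libraries of smeb-1 lay below all others, and the line difference was 2.70 ± 0.186 (adjusted p = 6.64e-04). AT3G59370, a vacuolar calcium-binding protein-like gene, had 7.15 and 5.84 in Col-0, 3.13 and 2.60 in smeb-1 and 8 and 9.51 in smeb-2 (line difference 1.33 ± 0.144, adjusted p = 0.0112). The peroxidase gene AT3G01190 and AGP14, which encodes an arabinogalactan protein of the cell wall, were also low in smeb-1 alone, with line differences of 0.92 ± 0.116 (adjusted p = 0.028) and 0.83 ± 0.112 (adjusted p = 0.0412). ASN2, an asparagine synthetase, had 53.0 and 53.5 FPKM in smeb-1 and 74.9 and 80.5 in smeb-2, beside 87.5 and 77.1 in Col-0.

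KIN1, known for its induction by cold and abscisic acid, was high in smeb-1 alone in control. It had 72.2 and 68.7 FPKM in Col-0, 140 and 145 in smeb-1 and 68.2 and 77.1 in smeb-2, a line difference of -0.97 ± 0.113 (adjusted p = 0.0161). KIN2, which lies next to it and resembles it, was 805 and 1024 FPKM in smeb-1, 647 and 586 in smeb-2 and 1367 and 1563 in Col-0, so it was not high in smeb-1. Its line difference was -0.56 (adjusted p = 0.353), and reads shared by the copies could have been split between them. EXPA8, an expansin that loosens cell walls, was farther from Col-0 in smeb-1, with 36.4 and 35.4 FPKM in Col-0, 15.9 and 16.9 in smeb-1 and 29.8 and 25.0 in smeb-2.

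Of the genes set apart in smeb-2 in control, PORA, a light-dependent enzyme of chlorophyll synthesis, had 7.32 and 8.27 FPKM in Col-0, 6.06 and 5.31 in smeb-1 and 2.08 and 2.05 in smeb-2. Its line difference was -1.12 ± 0.143 (adjusted p = 0.028). The subtilase AT4G21650 was lower in smeb-2 by -0.91 ± 0.106 (adjusted p = 0.0161), and the subtilase SBT4.12 was higher by 0.81 ± 0.117 (adjusted p = 0.0463). PR5K, a receptor kinase, was lower in smeb-2, and AGP30, an arabinogalactan protein, was higher, at 6.47 and 6.58 FPKM beside 2.56 and 1.84 in smeb-1. BHLH101 had 1.07 and 1.19 FPKM in Col-0, 0.0986 and 0.290 in smeb-1 and 2.08 and 2.03 in smeb-2, so all groups were low and did not overlap (line difference 1.36 ± 0.133, adjusted p = 0.00555).

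Root markers stood beside these control differences as follows. Of the 12 root markers tested, among them the Casparian strip genes CASP1 to CASP5, 0 passed in control in the limma fit of all libraries and 0 in that of the lines alone. Over all genes 0.104% and 0.257% passed in these fits, so a count of 0 among 12 genes says nothing about the markers. Their median line difference was 0.25, beside 0.00716 over all genes, and 9 of 12 were positive. Their summed FPKM was 82.8 to 89.9 in smeb-1 and 100 to 117 in smeb-2 in control, and 83.9 to 92.6 in Col-0. In whole seedlings, fewer cells of a type and less RNA per cell cannot be told apart, and the part of root share in the control differences was not tested. The list's median in salt was 0.02. No root marker was at 0 in any library.

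In salt, smeb-1, the line with more SmEb transcript, stood farther from Col-0 at most of the genes called between the lines. Of the 58 genes 27 were set apart in smeb-1 and 17 were farther in smeb-1, together 44 (75.9%). Another 11 were set apart in smeb-2, and at AT2G18750 the lines lay on opposite sides of Col-0. By group means, smeb-2 lay between Col-0 and smeb-1 at 31 of the 58 (53.4%). The line smeb-1 lay in the middle at 6 (10.3%) and Col-0 at 21 (36.2%). The 507 genes called in the fit of the lines alone include these 58 and rest on the same libraries, so they are not separate support. Among the 507, smeb-2 lay between Col-0 and smeb-1 at 333 (65.7%), smeb-1 lay in the middle at 28 (5.52%), and Col-0 at 146 (28.8%). The median absolute distance from Col-0 of these genes was 0.750 in smeb-1 and 0.331 in smeb-2 on the log2(FPKM + 1) scale. Of the 52 genes called in that fit in control, smeb-2 lay between at 18, smeb-1 between at 12 and Col-0 between at 22. Their median absolute distance from Col-0 was 0.857 in smeb-1 and 0.491 in smeb-2, so smeb-1 was the farther line by this measure in control too. Of the 21 control genes of the fit of all libraries, 11 (52.4%) were set apart or farther in smeb-1. Both lines are set against the same Col-0 libraries in this count. In the fit of the lines without smeb-2 salt suffix 1, only 29 genes were called and smeb-2 lay between at 31.0% of them, and without smeb-1 salt suffix 0 it lay between at 45.8% of 48 genes. Without suffix 1 of smeb-1 or suffix 0 of smeb-2 the share was 61.9% of 470 and 60.1% of 153. In the fit of all 12 libraries, the count set apart or farther in smeb-1 was 1 without smeb-1 salt suffix 0, 76 without suffix 1, and 3 and 2 without smeb-2 salt suffix 0 and suffix 1. It was 7 without either smeb-1 control library, 4 without either smeb-2 control library, 9 without either Col-0 control library, and 496 and 415 without Col-0 salt suffix 0 and suffix 1. The count set apart in smeb-2 ranged from 1 to 69 over the same fits.

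**Figure D4:**
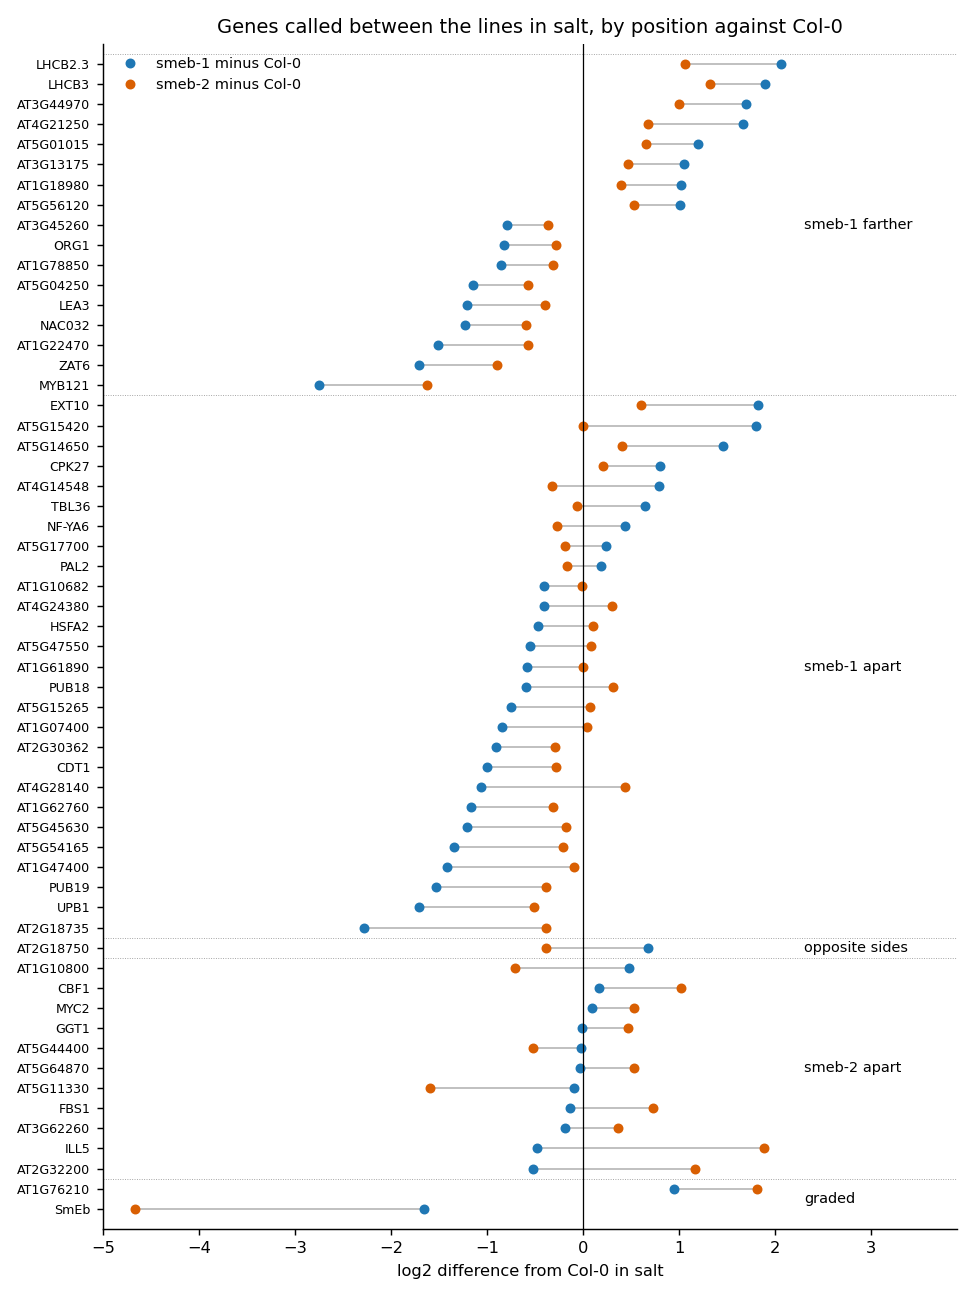
Log2 difference from Col-0 in salt (x axis, log2(FPKM + 1) scale) of smeb-1 and smeb-2 at the 58 genes called between the lines in salt, 1 gene a line, grouped by the position of the lines against Col-0. At the 44 genes set apart or farther in smeb-1 the point of smeb-1 lies farther from 0 than that of smeb-2, and SmEb, at the bottom, has the widest gap between the lines.

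Several transcription factor genes were lower in smeb-1 than in smeb-2 in salt. UPB1, a bHLH factor that controls peroxidases in the root, had 26.1 and 36.2 FPKM in Col-0, 7.61 and 10.03 in smeb-1 and 20.1 and 22.8 in smeb-2. The smeb-1 values were lowest and those of smeb-2 lay between, with a line difference of 1.2 ± 0.149 (adjusted p = 0.0255). MYB121 had 17.3 and 12.5 FPKM in Col-0, 1.18 and 1.51 in smeb-1 and 4.28 and 3.91 in smeb-2 (1.12 ± 0.151, adjusted p = 0.0271). NAC032, a stress-induced NAC factor, had 96.1 and 101 FPKM in Col-0, 40.0 and 43.0 in smeb-1 and 60.4 and 69.9 in smeb-2 (0.64 ± 0.0876, adjusted p = 0.0271). ZAT6, a zinc finger factor of abiotic stress, had 58.6 and 72.7 FPKM in Col-0, 20.3 and 18.3 in smeb-1 and 30.8 and 39.2 in smeb-2 (0.82 ± 0.123, adjusted p = 0.0355). The groups did not overlap at any of these 4 genes, and smeb-2 was always in the middle. Genes were named in part because the lines did not overlap, or with their values known, so these 4 do not stand for the rest. By group means smeb-2 was in the middle at 31 of the 58 genes called in salt.

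PUB19 and PUB18, U-box ubiquitin ligases that dampen responses to abscisic acid and drought, were low in smeb-1 alone. PUB19 had 34.2 and 26.7 FPKM in Col-0, 10.5 and 9.05 in smeb-1 and 20.9 and 25.1 in smeb-2, a line difference of 1.15 ± 0.135 (adjusted p = 0.02). PUB18 had a line difference of 0.91 ± 0.147 (adjusted p = 0.0481). AT5G54165, annotated as an Avr9/Cf-9 rapidly elicited protein, had 30.3 and 36.1 FPKM in Col-0, 11.7 and 13.2 in smeb-1 and 27.1 and 29.8 in smeb-2 (1.13 ± 0.157, adjusted p = 0.0271). LEA3, a late embryogenesis abundant protein, AT4G28140, an Integrase-type DNA-binding protein, and AT5G45630, a senescence regulator by its annotation, were also lower in smeb-1 than in smeb-2, by 0.82, 1.49 and 1.04. HSFA2, a heat shock factor, had 13.1 and 11.9 FPKM in Col-0, 8.58 and 8.92 in smeb-1 and 14.1 and 12.9 in smeb-2 (0.57 ± 0.0937, adjusted p = 0.0489).

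Light-harvesting antenna genes were among those that passed as higher in smeb-1 in salt. LHCB3 of photosystem II had 37.4 and 33.7 FPKM in Col-0, 135 and 136 in smeb-1 and 95.9 and 84.9 in smeb-2, a line difference of -0.58 ± 0.0796 (adjusted p = 0.0271). LHCB2.3 had 3.97 and 3.19 in Col-0, 19.4 and 16.8 in smeb-1 and 9.92 and 7.37 in smeb-2 (-0.99 ± 0.146, adjusted p = 0.0337), and near-identical LHCB2 copies could share its reads. Both genes were above Col-0 in each line, and smeb-2 was the nearer. Over the list of 19 photosynthesis genes the median salt difference was -0.18, with 17 lower and 2 higher in smeb-2, and LHCB3 alone passed. In the fit of the lines alone 6 were lower and 1, LHCB1.4, was higher, beside 0.746% and 1.76% of all genes. In control all 19 were above 0 with a median of 0.06 and 0 passed by limma, and after quantile normalization 7 were above 0. NF-YA6, a subunit of a CCAAT-binding factor, was higher in smeb-1 alone, with a line difference of -0.71 ± 0.117 (adjusted p = 0.0486). AT5G15420, uncharacterized, was listed at 0 in the Col-0 and smeb-2 salt libraries and at 2.51 and 2.49 FPKM in smeb-1 salt.

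The 11 genes set apart in smeb-2 in salt included regulators that were higher there. CBF1, a factor of cold responses, had 4.87 and 6.23 FPKM in Col-0, 5.70 and 6.98 in smeb-1 and 12.7 and 11.7 in smeb-2 (0.85 ± 0.135, adjusted p = 0.0421). FBS1, a stress-induced F-box protein, had 31.8 and 24.9 in Col-0, 23.5 and 27.8 in smeb-1 and 44.4 and 50.4 in smeb-2 (0.86 ± 0.130, adjusted p = 0.0355). MYC2, the main transcription factor of jasmonate responses, had 38.7 and 36.2 in Col-0, 41.2 and 38.6 in smeb-1 and 57.7 and 51.5 in smeb-2 (0.44 ± 0.0724, adjusted p = 0.0486). In each, Col-0 and smeb-1 overlapped or lay close and smeb-2 was above both. AT5G64870, a membrane-associated Band 7 protein, GGT1, a gamma-glutamyl transpeptidase of glutathione breakdown, and AT3G62260, a phosphatase of the PP2C family, were higher in smeb-2 by 0.57, 0.47 and 0.55. AT2G32200, a small cysteine-rich membrane protein by its annotation, had 1.39 and 2.56 FPKM in smeb-1 and 8.76 and 8.04 in smeb-2 (1.69 ± 0.215, adjusted p = 0.0255). ILL5, related to enzymes that free auxin from amino acids, had 6.94 and 2.81 FPKM in smeb-2 and at most 0.648 elsewhere in salt. AT5G44400, a berberine bridge enzyme-like gene, was lower in smeb-2 by -0.50 ± 0.0727 (adjusted p = 0.0337), and AT1G10800 was listed at 0 in both smeb-2 salt libraries.

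Pathway lists, 26 in number, held 300 tested genes. In control 3 of the 300 passed, beside 0.104% of all genes, SmEb in the Sm ring list, KIN1 among abscisic acid and osmotic markers and BHLH101 among iron deficiency genes, and the other 23 lists had none. In salt 4 passed, beside 0.286% of all genes, SmEb, HSFA2, MYC2 and LHCB3, each in its own list, and 22 lists had none. By count and median in salt, the lists differed in the direction of their members. The 15 abscisic acid and osmotic markers were all higher in smeb-2, with a median of 0.42 beside 0.0132 over all genes, and the 8 clade A PP2C phosphatases, which hold back abscisic acid signalling, were all higher with a median of 0.57 (7 of 8 after quantile normalization). RD29B had 18.7 and 18.5 FPKM in smeb-1 and 36.0 and 38.6 in smeb-2, and RD26 had 44.2 and 57.0 against 86.0 and 102. The differences were 0.96 ± 0.323 (adjusted p = 0.251) for RD29B and 0.89 ± 0.149 (adjusted p = 0.0513) for RD26 in the fit of all libraries. In the fit of the lines alone 4 of the 15 markers (RD29B, RD26, COR47 and NCED3) and 5 of the 8 phosphatases passed as higher in smeb-2, beside 1.76% of all genes. Against Col-0, 12 of the 15 markers and 8 of the 8 phosphatases were lower in smeb-1, beside 15.1% of all genes, and 2 and 1 were lower in smeb-2, beside 6.08%.

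Heat shock genes and targets of mitochondrial retrograde signalling showed the same direction in salt. All 9 heat shock genes were higher in smeb-2, with a median of 0.57, and HSFA2 alone passed in the fit of all libraries. In the fit of the lines alone 5 of them (HSFA2, HSP17.4, HSP17.6II, HSP70 and HSP101) passed as higher, beside 1.76% of all genes. HSP17.6II, a small heat shock protein, had 1.83 and 1.82 FPKM in smeb-1 and 6.86 and 4.97 in smeb-2 (1.28 ± 0.284, adjusted p = 0.108 in the fit of all libraries). Of 12 retrograde targets 11 were higher, with a median of 0.38, and 0 passed in the fit of all libraries. NAC013, UPOX, UGT74E2, CRF6 and ZAT10 passed as higher in the fit of the lines alone, beside 1.76% of all genes. AOX1A, the alternative oxidase, had 165 and 176 FPKM in smeb-1 and 207 and 221 in smeb-2 and did not pass in either fit. Against Col-0 in salt the retrograde list had medians of 0.04 in smeb-1 and 0.32 in smeb-2, so there smeb-2 was the farther line. Of its 12 members 3 passed as higher in smeb-1, beside 12.4% of all genes, and 5 in smeb-2, beside 7.66%. The heat shock list had medians of -0.44 in smeb-1 and 0.10 in smeb-2. In smeb-1, 5 of its members passed as lower and 1 as higher, beside 15.1% and 12.4% of all genes. In smeb-2, 2 passed as higher, beside 7.66%.

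Flavonoid and anthocyanin genes went the other way, with a median of -0.54 in salt and 1 of 14 above 0. In the fit of the lines alone 7 of them were lower in smeb-2, F3'H, DFR, LDOX, UF3GT, UGT75C1, 5MAT and TT19, which act in late pigment synthesis and storage (0.746% of all genes were lower), and 0 passed in the limma fit of all libraries. DFR, a reductase of the pathway, had 99.7 and 110 FPKM in smeb-1 and 65.2 and 59.4 in smeb-2, beside 50.5 and 33.3 in Col-0 (-0.74 ± 0.221, adjusted p = 0.21). LDOX had 84.7 and 98.1 in smeb-1 and 54.3 and 56.0 in smeb-2, beside 47.8 and 30.5 in Col-0 (-0.72 ± 0.174, adjusted p = 0.134). For both genes the lines did not overlap and smeb-2 was nearer to Col-0. Against Col-0, 11 of the 14 were higher in smeb-1, beside 12.4% of all genes, and 3 in smeb-2, beside 7.66%. The calls of the fit without Col-0 rest on single libraries. Its 507 salt genes became 48 and 470 without smeb-1 salt suffix 0 and suffix 1, and 153 and 29 without smeb-2 salt suffix 0 and suffix 1. They became 288 without either smeb-1 control library, and 163 and 155 without smeb-2 control suffix 0 and suffix 1.

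The lists did not line up in this way in control. There the abscisic acid and osmotic markers had a median of -0.37, with 3 of 15 above 0, and the phosphatases -0.07, with 0 of 8 above 0. In the fit of the lines alone 3 of these markers (RD29B, KIN1 and COR15A) and 1 phosphatase (HAI1) passed as lower in smeb-2, beside 0.119% of all genes. RD29B thus passed in opposite directions in control and in salt in that fit. The line difference changed upward with salt at RD29B, KIN1 and HAI1 in that fit, beside 0.168% of all genes. Heat shock genes had a median of -0.02 and flavonoid genes -0.11. All 12 fermentation and hypoxia genes were lower in smeb-2 in control, with a median of -0.29, but none passed and the smeb-2 libraries differed among themselves. ADH1, alcohol dehydrogenase, had 70.6 and 89.5 FPKM in smeb-1 and 45.6 and 86.4 in smeb-2, so the lines overlapped.

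**Figure D5:**
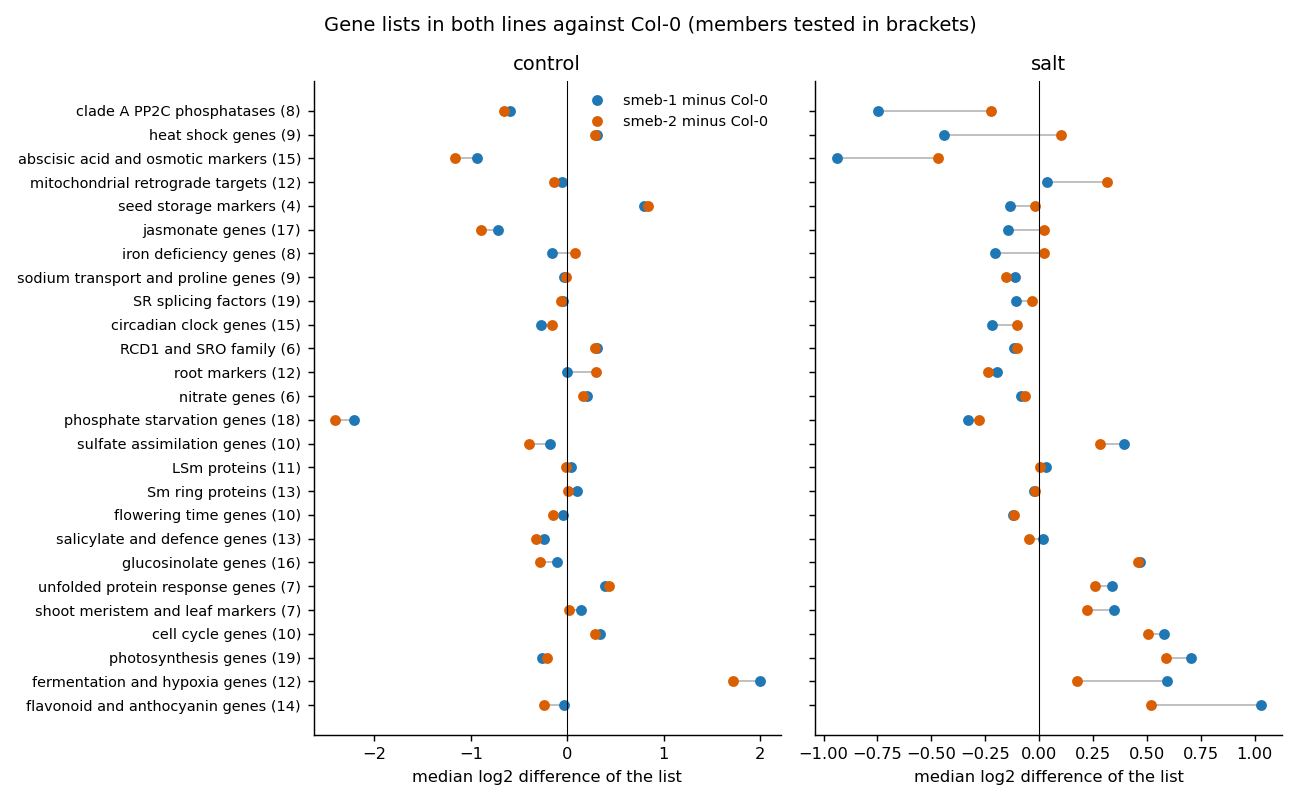
Median log2 difference from Col-0 (x axis, log2(FPKM + 1) scale) of the members of 26 gene lists in smeb-1 and smeb-2, in control (left) and salt (right), with the number of members tested in brackets; the lists are ordered by the line difference in salt. In salt the points of smeb-2 are nearer to 0 than those of smeb-1 for the abscisic acid, PP2C and flavonoid lists, and in control the points of the lines lie close together for most lists.

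A single gene changed its line difference with salt in the fit of all libraries (0.00494% of genes tested), AT5G46900, which was low in smeb-1 in control and at or near 0 in all salt libraries, the highest at 0.139 FPKM. The change was -2.68 ± 0.263 (adjusted p = 0.0344), on the log2(FPKM + 1) scale. Without Col-0, 43 genes (0.212%) did so, 34 in the positive direction (0.168%) and 9 in the negative (0.0444%). At an unadjusted p under 0.05 there were 1818 genes. The single call was lost without smeb-1 control suffix 0 (adjusted p = 0.246) and suffix 1 (0.102), smeb-1 salt suffix 0 (0.298), smeb-2 control suffix 1 (0.147), and smeb-2 salt suffix 0 (0.0951) and suffix 1 (0.156).

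Calls were also counted by the number of introns, and the difference between the classes was not tested. In salt 22 of 3074 genes with no intron in the reference passed (0.716%), and 2 of 3306 with 10 or more introns (0.0605%). Without Col-0 the shares were 3.68% and 1.27%. In control 5 and 1 genes of these classes passed. Against Col-0 in salt, 27.03% of genes with no intron and 27.7% of those with 10 or more passed for smeb-1, and 15.8% and 11.7% for smeb-2. The median line difference lay between -0.00179 and 0.0178 over the intron classes in control and between 0.00607 and 0.0225 in salt. Genes with a splicing event that the authors' deposited table lists as dependent on SmEb, 131 in number, had 0 calls between the lines in control and in salt by limma, and 195 tested genes with events listed as independent of SmEb likewise had 0. Over all genes 0.104% and 0.286% were called, so a count of 0 in lists of this size says nothing about their members. Without Col-0, where 0.257% and 2.5% of all genes passed, the dependent genes had 0 calls in control and 1 in salt, and the independent genes 1 and 1. Those tables do not state which line their mutant reads came from.

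By position, 10 of the 21 control calls lay on chromosome 5 and 6 on chromosome 2, of 4707 and 3054 genes tested there. These are 0.212% and 0.196%, beside 0.104% of all genes. In salt the share called lay between 0.227% and 0.361% on each chromosome, beside 0.286% of all genes. Outside SmEb and its flanking genes 18 calls were left in control and 55 in salt. The 1 Mb window that holds SmEb had 3 calls in each treatment of 190 tested genes, and no other window had more in the fit of all libraries. These 3 were SmEb, AT2G18735 and AT2G18750, already described above. In salt the windows of chromosome 1 from 3 to 4 Mb and from 22 to 23 Mb also held 3 each. In the fit of the lines alone the window of chromosome 1 from 19 to 20 Mb held the most. It had 4 calls in control and 16 in salt of 193 tested genes, beside 0.257% and 2.5% of all genes.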

How the data were processed

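Total RNA of seedlings was sequenced in 12 libraries. The submitters' processing notes name Trimmomatic 0.32, TopHat2 2.0.13 and the TAIR10 build. Expression was deposited by the authors as FPKM per gene and library. The quantification tool, annotation, strand use and depth are not given in any source used here, so no counting interval can be given. Splicing events carry a p-value and FDR computed by the authors, per the file headers, of which only the gene identifiers and positions served here. A listed 0 may not mean absence: 11 genes whose median reached 5 FPKM stand at 0 somewhere.

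Tests used limma 3.58.1 in R 4.3.3 with its trend option, on log2(FPKM + 1), with 1 mean for each of 6 groups, 6 residual degrees of freedom and Benjamini-Hochberg adjustment over 20251 genes. Calls needed an adjusted p under 0.05. Differences are on that scale, on which low genes move less than on a plain log scale, and ± is the SE. The Col-0 salt pair, which varied most, enters the shared spread of the fit. Symbols, products, introns and sequences came from the RefSeq annotation of TAIR10.1, to which 32817 gene identifiers matched; 330 of 344 splicing event positions lay inside the reference gene of the same identifier. The steps were tested on simulated data.

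The comparison, the lists and the alternatives were chosen with earlier results of these data known. Genes were named by rule: SmEb, SmEa and RCD1, the 6 largest rises and falls among calls with a mean FPKM of at least 5 and no overlap, up to 3 graded or set-apart genes in each direction, and at most 2 calls from any list. Other genes were named after their values were seen, for their known roles or because a count was small. The alternatives were each library left out, fits of fewer groups, the suffix as a replicate block, quantile normalization, median-of-ratios scaling, a pseudocount of 0.1, no filter on low values and a fold of at least 2; some were added after the data were seen.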

Additional observations from a re-analysis of the deposited data

Results flagged for a closer look

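AT5G46900 was singled out because its line difference itself differed between treatments, with a change of -2.68 from control to salt on the log2(FPKM + 1) scale (adjusted p = 0.0344 by limma). It was at 1.51 and 1.4 FPKM in smeb-1 and 13.2 and 17.0 in smeb-2 in control, and at or near 0 in every salt library of both lines and of Col-0. Groups of 2 libraries are too small to test for outlying libraries.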

How the results depend on the processing

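None of the 80 called line differences, or changes of one with salt, reversed its direction under the alternatives run for them. Many lost their call, however. Of the 80 calls, 44 were kept without the filter, 56 with a pseudocount of 0.1 and 73 after quantile normalization. Fitting only the groups of a treatment kept 15 of 79. Over 27 alternatives, AT5G11330 kept its call in 24 in control and 26 in salt. PORA in control and CBF1 in salt kept theirs in 11, and AT2G43620 in control in 9. HSFA2 in salt kept its call in 7 and MYC2 in salt in 5. KIN2, AOX1A and ADH1, which were not called, were not followed over the alternatives. Leaving out the filter on low values gave 12 genes called in control, 10 whose difference changed with salt, 4 called in both treatments, 1 graded, 4 set apart in smeb-2, 5 set apart in smeb-1 and 5 set apart or farther in smeb-1 in control. Fitting only the groups of a treatment gave 4 genes in salt, 1 in both, 1 graded, 1 set apart in each of smeb-1 and smeb-2 and 2 set apart or farther in smeb-1 in salt, and 3 set apart in smeb-2 in control. Fitting only the lines gave 52 genes in control, 507 in salt, 43 whose difference changed with salt and 17 in both. A pseudocount of 0.1 gave 0 changes of the difference with salt and 7 genes set apart or farther in smeb-1 in control. A minimum of 2-fold left 10 genes in control and 18 in salt, with 1 graded in each, 3 and 3 set apart in smeb-2, 2 and 10 set apart in smeb-1, and 3 and 11 set apart or farther in smeb-1.

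Deviations of libraries with the same suffix correlated at r of -0.125 to 0.112 over the pairs of groups (-0.0668 between the lines in control and 0.00499 in salt), so the suffix was not taken as pairing the libraries. With it as a replicate block there were 11 genes in control, 65 in salt, 0 changes of the difference with salt, 4 in both, 2 and 3 graded, 3 and 11 set apart in smeb-2, 5 and 29 set apart in smeb-1, and 5 and 50 set apart or farther in smeb-1.

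Leaving out 1 library gave 5 to 59 genes in control, 4 to 610 in salt, 0 to 53 changes with salt and 2 to 18 in both. Leaving out Col-0 and 1 library of the lines together gave up to 124 changes with salt. Graded genes ranged from 1 to 6 in control and 1 to 13 in salt, genes set apart in smeb-2 from 0 to 14 and 1 to 69, genes set apart in smeb-1 from 2 to 25 and 1 to 306, and genes set apart or farther in smeb-1 from 2 to 35 and 1 to 496. In the fits of the lines alone, the share with smeb-2 between Col-0 and smeb-1 ranged from 20.0% to 33.3% in control and from 31.0% to 61.9% in salt. With 2 libraries a group, and read depth not given, small differences could not be resolved; SmEb was called in both treatments under all 27 alternatives.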
